A study of Mus musculus with 12 samples.

Results

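Genes that carry calcium and magnesium across the epithelium of the distal convoluted and connecting tubule were described in cells sorted from mouse kidney cortex. The 10 genes were taken by symbol from a deposited table of 23378 genes: Trpv5, Calb1, S100g, Slc8a1, Atp2b1, Atp2b4, Trpm6, Trpm7, Cnnm2 and Pvalb. All 10 were in the table and all 10 passed the filter on low counts. Total RNA was sequenced from 12 libraries. All mice were C57BL/6 nNosCreERT2-mTmG animals, named MD-GFP in the labels: Nos1 (nNOS) drives a tamoxifen-inducible Cre, which turns the reporter from red to green where it acts. Green cells were taken as macula densa cells, the salt-sensing plaque of the distal nephron, and the cells with the most red tdTomato as control cells, which the labels describe as distal tubule and collecting duct epithelium. For 14 days the mice were on a control diet or on a low salt diet with catalogue number TD 90228, the latter with the ACE inhibitor enalapril at 150 mg/L in the drinking water. The groups were macula densa cells on control diet (n = 2), macula densa cells on low salt plus enalapril (n = 2), control cells on control diet (n = 4) and control cells on low salt plus enalapril (n = 4). The labels give neither age nor sex, and do not say that the libraries of a group came from separate mice, so p-values measure the spread between these samples.

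Transcellular calcium reabsorption runs in 3 steps. Calcium enters through the apical channel Trpv5, is carried across the cytosol by the buffers calbindin-D28k (Calb1) and calbindin-D9k (S100g), and leaves the basolateral side through the sodium-calcium exchanger Slc8a1 and plasma membrane calcium pumps such as Atp2b1 and Atp2b4. Magnesium enters distal convoluted tubule cells through channels of Trpm6 and Trpm7, and Cnnm2 is a basolateral membrane protein needed for its reabsorption. Parvalbumin (Pvalb) is a cytosolic calcium buffer of the early distal convoluted tubule. The macula densa itself is not a main site of this transport.

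Library totals ran from 4259034 to 14856540 estimated counts, of which 53.5% to 65.0% fell on 1 gene, Gm42418, which overlaps ribosomal RNA. Values below are CPM, counts scaled to library size and adjusted by the trimmed mean of M-values. Nos1, the gene that drives the Cre, was at 100 to 232 CPM in the macula densa libraries and at 0.109 to 0.732 CPM in the control-cell libraries. Ren1, the renin gene, was higher on low salt plus enalapril in control cells (log2 fold change 4.22, SE 0.43, edgeR adjusted p 0.00470). The control cells did not hold distal epithelium alone. The summed level of 8 podocyte markers ran from 46.1 to 1453 CPM in them and that of 10 endothelial markers from 53.6 to 1695 CPM, against 29.3 to 174 CPM and 14.4 to 187 CPM in macula densa libraries. Control-cell replicate 4 on control diet stood apart. It had the lowest podocyte and endothelial sums of the 8 control-cell libraries, and the highest sum of 10 principal cell markers (956 CPM, against 120 to 499 CPM in the other 7). Results that rest on this library are given with and without it where both were computed. Fewer cells of a type and less RNA per cell cannot be told apart in such bulk libraries.

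**Figure D1:**
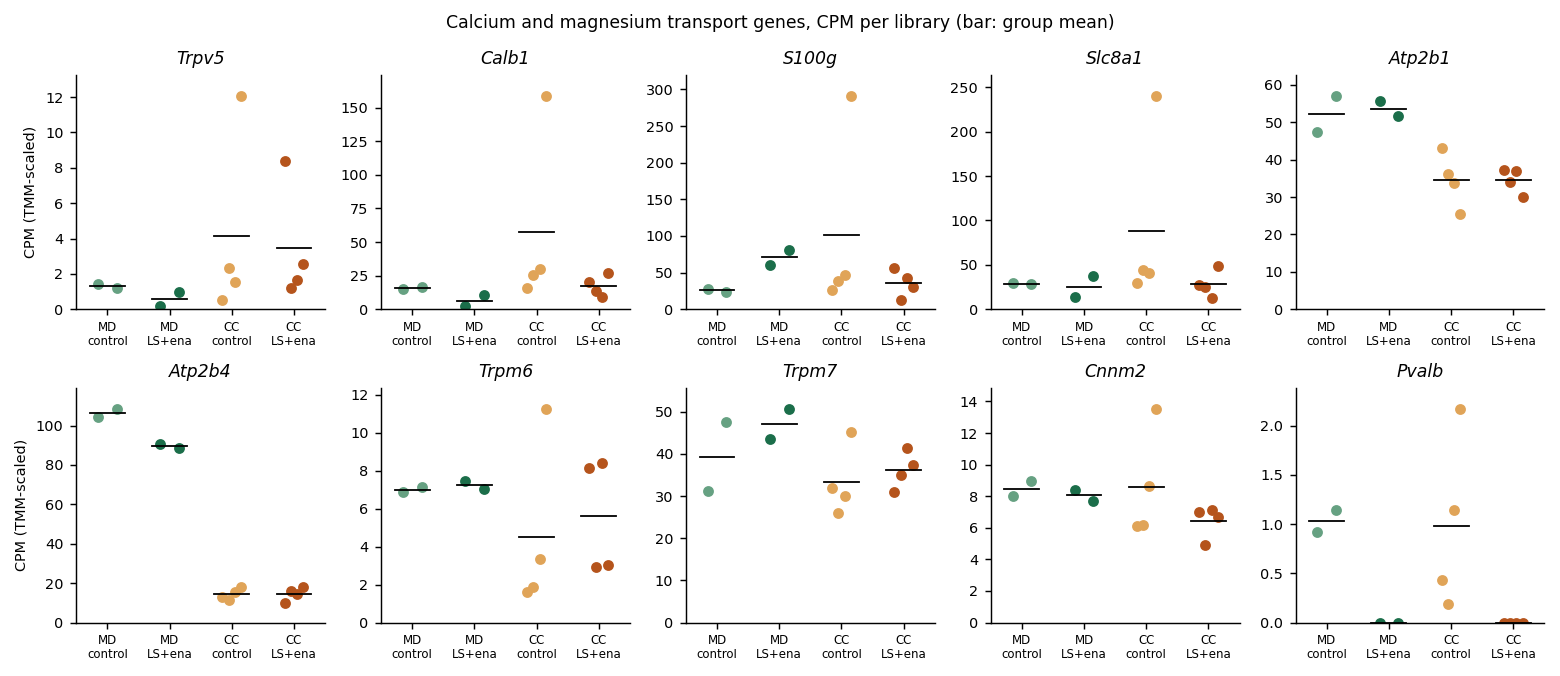
Level of each of the 10 genes in every library, in CPM, with 1 point per library and a bar at the group mean; MD is macula densa cells, CC control cells, LS+ena low salt plus enalapril. The Atp2b4 points of macula densa cells (88.6 to 108 CPM) all lie above those of control cells (9.67 to 18.2 CPM), and all 6 Pvalb points on low salt plus enalapril lie at 0.

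Averaged over both diets, 2 of the 10 genes passed the test, Atp2b4 and Atp2b1, and both were higher in macula densa cells. Both are plasma membrane calcium pumps; of the other genes of basolateral calcium exit, the member Slc8a1 did not pass (log2 fold change -0.89) and the pump Atp2b2, from the wider list below, was lower (-2.54). Over all 14180 genes tested, 21.4% passed in either direction and 7.53% passed as higher, so 2 of 10 is near the background share. DESeq2's Wald test called 4 of the 10, Trpv5 and Calb1 as lower besides the 2 pumps, and 26.2% of all genes. The median log2 fold change was 0.15 over the 9 members other than Pvalb, for which no fold is given because its treated libraries are at 0, and -0.06 over all genes.

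Atp2b4, plasma membrane calcium pump 4, lies at chr1:133699457-133801041 on the minus strand (GRCm38, as for all coordinates here). Its level was 104 and 108 CPM in macula densa cells on control diet, and 90.8 and 88.6 CPM on low salt plus enalapril. The control-cell values were 13.0, 11.3, 15.4 and 18.0 CPM on control diet, and 9.67, 15.9, 14.5 and 18.2 CPM on low salt plus enalapril. Every macula densa library was above every control-cell library, within each diet (as for 15.2% of genes on control diet and 15.3% with the treatment) and over both. A gap between all 4 and all 8 libraries in this direction was found for 4.31% of genes tested. The group means were 106 ± 2.85 CPM (SD, n = 2), 89.7 ± 1.59 CPM (SD, n = 2), 14.4 ± 2.95 CPM (SD, n = 4) and 14.5 ± 3.59 CPM (SD, n = 4), in the same order. Averaged over the diets, Atp2b4 was 6.74-fold higher in macula densa cells (log2 2.75, SE 0.18, 95% interval 2.37 to 3.14, edgeR adjusted p 3.11e-06). It was the only member to pass within each diet. The log2 fold change was 2.88 on control diet (SE 0.25, edgeR adjusted p 0.000125), where 6.57% of all genes passed. With low salt plus enalapril it was 2.63 (SE 0.25, edgeR adjusted p 0.000174), where 7.28% passed. The gene overlaps Gm37368 on the same strand, which held 58 counts in all libraries together against 4382 for Atp2b4.

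Atp2b1, plasma membrane calcium pump 1, the widely expressed member of the family, lies at chr10:98914406-99026143 on the plus strand. It was at 47.4 and 57.1 CPM in macula densa cells on control diet, and at 55.7 and 51.7 CPM on low salt plus enalapril. Control cells held 43.1, 36.2, 33.7 and 25.5 CPM on control diet, and 37.1, 33.9, 37.1 and 30.2 CPM on low salt plus enalapril. The populations again did not overlap, though the gap between the nearest libraries was small (47.4 against 43.1 CPM). The difference was 1.53-fold (log2 0.61, SE 0.15, 95% interval 0.28 to 0.95, edgeR adjusted p 0.0150). Within each diet it did not pass (log2 0.59, edgeR adjusted p 0.118 on control diet; log2 0.63, edgeR adjusted p 0.0959 on low salt plus enalapril). Without replicate 2 of macula densa cells on control diet, the averaged difference was 0.55 and no longer passed (edgeR adjusted p 0.0787). Without control-cell replicate 4 on control diet, Atp2b1 passed for the mean (0.55, edgeR adjusted p 0.00911) and with low salt plus enalapril (0.64, edgeR adjusted p 0.0415).

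The remaining genes of the calcium route, Trpv5, Calb1, S100g and Slc8a1, had large spreads within the control cells, and none passed the test between the populations over all 12 libraries. On the 8 libraries whose description number is shared by both populations, Calb1 passed as lower (-1.23, edgeR adjusted p 0.0167) and S100g as higher on low salt plus enalapril (1.64, edgeR adjusted p 0.00858). Those 8 libraries leave out control-cell replicates 1 and 4 on control diet and replicates 1 and 3 on low salt plus enalapril. Leaving out only replicate 4 on control diet gave neither call. In all 4 genes, control-cell replicate 4 on control diet was far above the other 3 libraries of its group. For S100g and Slc8a1 the bases upstream of the annotated start are shown, because both were highest in that library and ordered differently across the macula densa libraries. They are RefSeq promoters of GRCm38.p6, 250 bases each, 5′ to 3′ on the gene's strand, at chrX:162964600-162964849 (minus) for S100g and chr17:81738388-81738637 (minus) for Slc8a1.
S100g: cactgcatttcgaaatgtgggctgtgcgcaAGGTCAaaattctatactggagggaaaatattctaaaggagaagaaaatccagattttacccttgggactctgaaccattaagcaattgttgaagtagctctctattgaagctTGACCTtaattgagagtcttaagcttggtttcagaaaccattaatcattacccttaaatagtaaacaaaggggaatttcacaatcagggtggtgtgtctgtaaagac
Slc8a1: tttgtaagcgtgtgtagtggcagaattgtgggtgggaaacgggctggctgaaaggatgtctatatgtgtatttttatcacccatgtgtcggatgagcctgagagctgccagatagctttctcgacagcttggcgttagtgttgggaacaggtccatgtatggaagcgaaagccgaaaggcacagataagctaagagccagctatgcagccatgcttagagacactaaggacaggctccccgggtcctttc
Capitals mark AGGTCA, the core letters bound by many nuclear receptors, which S100g holds at -220 on the gene's strand and at -107 on the other strand (as TGACCT). Besides AGGTCA, found in 14.0% of 32851 promoters of this length, the TATA box TATAAA (12.4%) and the GC box GGGCGG (32.7%) were searched on both strands. No matches overlapped in the windows shown, and the Slc8a1 window held none. A match is a description of the letters, not of binding. Promoters were matched for 9 of the 10 genes; Calb1 was not matched.

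Trpv5, the apical calcium channel, lies at chr6:41652173-41680769 on the minus strand and was rare in every group. Its level was 1.43 and 1.22 CPM in macula densa cells on control diet (14 and 15 counts), and 0.191 and 0.983 CPM on low salt plus enalapril (1 and 6 counts). Control-cell values were 0.543, 2.34, 1.52 and 12.1 CPM on control diet, and 8.36, 1.22, 1.68 and 2.54 CPM on low salt plus enalapril. The ranges overlapped on control diet, while on low salt plus enalapril both macula densa libraries were below the 4 control-cell libraries, as for 19.5% of genes. Averaged over the diets, the log2 fold change was -2.10 (SE 0.86, 95% interval -3.98 to -0.22, edgeR adjusted p 0.105). It did not pass in edgeR, and did with DESeq2's Wald test (adjusted p 0.0363). Without control-cell replicate 4 on control diet it was -1.37.

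Calb1, calbindin-D28k, the large cytosolic buffer of the connecting tubule, lies at chr4:15881264-15908064 on the plus strand. It was at 15.3 and 16.3 CPM in macula densa cells on control diet, and at 2.68 and 10.3 CPM on low salt plus enalapril. In control cells it was at 16.0, 25.3, 30.1 and 159 CPM on control diet, and at 20.4, 13.7, 8.81 and 26.6 CPM on low salt plus enalapril. The macula densa libraries sat at the low end of the control cells, with overlap. The averaged log2 fold change was -1.64 (SE 0.62, 95% interval -3.00 to -0.28, edgeR adjusted p 0.0812). It passed with DESeq2's Wald test (adjusted p 0.0210) and without control-cell replicate 1 on control diet (log2 -1.80, edgeR adjusted p 0.0494). Without control-cell replicate 4 on control diet it was -1.01 (edgeR adjusted p 0.0530).

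S100g, calbindin-D9k, a small buffer whose gene responds to vitamin D and estrogen in other tissues, lies at chrX:162961992-162964599 on the minus strand. It was at 28.3 and 23.2 CPM in macula densa cells on control diet, and at 60.6 and 80.9 CPM on low salt plus enalapril. The control-cell libraries stood at 26.5, 39.0, 46.3 and 291 CPM on control diet, and 55.9, 13.2, 43.2 and 31.0 CPM on low salt plus enalapril. Macula densa cells were therefore at the low end of control cells on control diet and above all 4 on the treatment, as for 15.3% of genes. The averaged log2 fold change was -0.50 (SE 0.59, edgeR adjusted p 0.598), and it changed sign to 0.22 without control-cell replicate 4 on control diet. S100g lies within Ctps2, on the opposite strand and with no shared exon, and held 6636 counts in all libraries together against 582 for Ctps2.

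Slc8a1, the sodium-calcium exchanger NCX1, lies at chr17:81373105-81738377 on the minus strand. It was at 29.3 and 28.4 CPM in macula densa cells on control diet, and at 13.4 and 37.8 CPM on low salt plus enalapril. Values in control cells were 30.0, 43.9, 40.5 and 240.4 CPM on control diet, and 26.9, 25.1, 13.2 and 48.9 CPM on low salt plus enalapril. On control diet both macula densa libraries were just below the lowest control-cell library, as for 16.7% of genes. The averaged log2 fold change was -0.89 (SE 0.57, edgeR adjusted p 0.299), and -0.28 without control-cell replicate 4 on control diet. Its exons overlap AC122399.1 and Gm11096 on the opposite strand, and reads of such partners cannot be told apart unless strand was used.

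**Figure D2:**
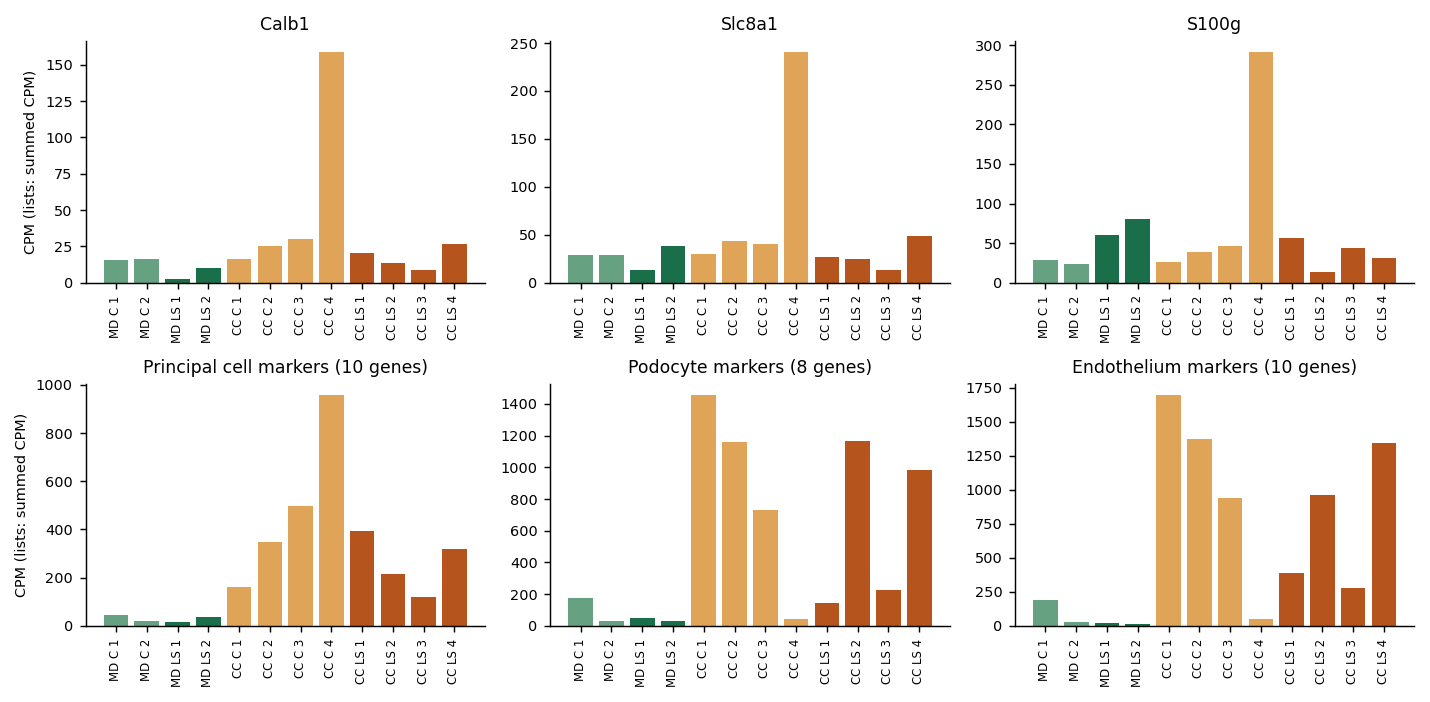
Level of Calb1, Slc8a1 and S100g (CPM, upper row) and summed level of principal cell, podocyte and endothelial markers (CPM, lower row) in each library; MD is macula densa cells, CC control cells, C control diet, LS low salt plus enalapril, and numbers are replicates. CC C 4 has the highest bar in the 3 upper panels (159, 240.4 and 291 CPM) and for principal cell markers (956 CPM), and low podocyte and endothelial sums (46.1 and 53.6 CPM).

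Markers of the neighbouring segments were also high in control-cell replicate 4 on control diet. The summed level of 3 connecting tubule markers that are not members (Klk1, Scnn1b and Kl) was 451 CPM in that library and 48.6 to 129 CPM in the other 3 of its group, and 0 of the 3 were at 0 there. Across the macula densa libraries this sum was 296 to 559 CPM, against 48.6 to 451 CPM in control cells. It was made up mostly of Klk1 and Kl, and between populations it ran opposite to Trpv5, Calb1 and Slc8a1. The 3 markers did not move together, as Klk1 passed as higher in macula densa cells and Scnn1b as lower. In macula densa libraries Klk1, tissue kallikrein, was at 186 to 468 CPM and Kl, the Klotho gene, at 89.9 to 118 CPM. Scnn1b is an epithelial sodium channel subunit of the connecting tubule and collecting duct. It was at 1.38 to 3.60 CPM in macula densa libraries and at 5.65 to 56.4 CPM in control cells, the same direction as Trpv5, Calb1 and Slc8a1. Aqp2, the principal cell water channel, was at 1.53 to 9.73 CPM in macula densa libraries and at 47.2 to 252 CPM in control cells. All 10 principal cell markers were lower in macula densa cells, where their sum was 14.9 to 46.2 CPM, against 120 to 956 CPM in control cells. The part of these cells in the member levels was not tested.

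The magnesium genes did not pass the test between populations when all libraries were used. Trpm6, the apical magnesium channel of the distal convoluted tubule, lies at chr19:18749983-18892511 on the plus strand. It was at 6.86 and 7.16 CPM in macula densa cells on control diet, and at 7.46 and 7.04 CPM on low salt plus enalapril. Control-cell levels were 1.63, 1.88, 3.33 and 11.2 CPM on control diet, and 8.13, 2.93, 8.39 and 3.05 CPM on low salt plus enalapril. The macula densa values were close together, and the control cells fell on both sides of them. The averaged log2 fold change was 0.49 (SE 0.48, 95% interval -0.55 to 1.54, edgeR adjusted p 0.509). Without control-cell replicate 4 on control diet it was 0.98 and passed (edgeR adjusted p 0.0396), also within control diet (1.61, edgeR adjusted p 0.0338). On the 8 libraries whose description number is shared by both populations, Trpm6 also passed for the mean (1.35, edgeR adjusted p 0.00300). It passed there on control diet (1.42, edgeR adjusted p 0.0201) and on low salt plus enalapril (1.27, edgeR adjusted p 0.0435). The call on Trpm6 therefore turned on which control-cell libraries were used. The summed level of the 6 distal convoluted tubule markers that are not members was 391 CPM in control-cell replicate 4 on control diet. It was 64.1 to 175 CPM in the other 3 of its group and 249 to 350 CPM in macula densa cells. The part of these cells was not tested.

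Trpm7, the widely expressed relative of Trpm6 with a kinase domain, lies at chr2:126791565-126876230 on the minus strand. It was at 31.2 and 47.5 CPM in macula densa cells on control diet, and at 43.4 and 50.6 CPM on low salt plus enalapril. In control cells it was at 26.1 to 45.1 CPM on control diet and at 30.8 to 41.3 CPM on low salt plus enalapril. The averaged log2 fold change was 0.31 (SE 0.18, edgeR adjusted p 0.242). Cnnm2 lies at chr19:46761596-46880192 on the plus strand. It was at 7.99 and 8.94 CPM in macula densa cells on control diet, and at 8.41 and 7.70 CPM on low salt plus enalapril. The control cells had 6.09 to 13.5 CPM on control diet and 4.88 to 7.13 CPM on low salt plus enalapril. The averaged log2 fold change was 0.15 (SE 0.23, 95% interval -0.35 to 0.64, edgeR adjusted p 0.698). Both genes varied less over the 12 libraries than the calcium buffers did.

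**Figure D3:**
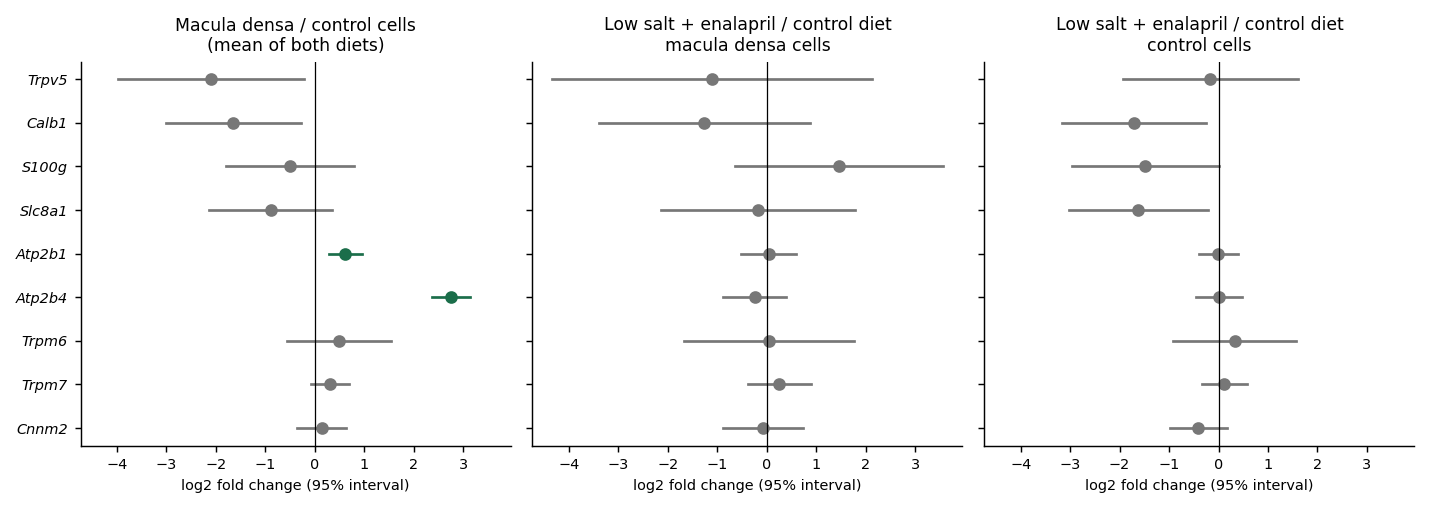
Log2 fold changes of 9 of the 10 genes with 95% intervals for macula densa against control cells and for low salt plus enalapril against control diet in each population, with genes that passed the test in green; Pvalb is left out because its treated libraries are at 0. Only Atp2b4 (2.75) and Atp2b1 (0.61) are green, both in the left panel, and the intervals of Trpv5, Calb1, S100g and Slc8a1 are several times wider.

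Low salt plus enalapril changed none of the 10 genes past the threshold in the edgeR fit over all 12 libraries, in either population. In macula densa cells 0 members were called, of 0 genes called among all 14180 (0% of genes), and 1 member, Pvalb, had an unadjusted p under 0.05, as did 11.3% of genes. In control cells 0 members were called, against 1 gene of all (0.00705%), and 4 members had an unadjusted p under 0.05 (Calb1, S100g, Slc8a1 and Pvalb), as did 6.44% of genes. DESeq2's Wald test called 0 members in macula densa cells (0.656% of genes) and 1, Pvalb, in control cells (0.522% of genes). In data simulated at this design, 4-fold changes were recovered for 52% of changed genes in macula densa cells and for 87.5% in control cells. The changed genes were drawn from those with a mean of at least 5 CPM, so these shares do not cover Trpv5 and Pvalb. With 200 genes changed at once, the adjustment was also less strict than in the data, where 0 and 1 genes passed. Standard errors of Calb1, S100g and Slc8a1 were 0.65 to 0.98 in these comparisons. The shares therefore do not say how readily a 4-fold change of these genes would have passed.

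In macula densa cells S100g had the largest positive difference of the members. Both treated libraries were above both control-diet libraries, as for 18.8% of genes, with a log2 fold change of 1.46 (SE 0.97, 95% interval -0.64 to 3.56, edgeR adjusted p 0.600). Fitted on the 4 macula densa libraries alone, it was 1.48 and passed (edgeR adjusted p 0.00748). More genes of all passed in that fit too, and their number is given with the other settings below. The principal cell marker sum was 14.9 and 35.2 CPM in the treated libraries and 46.2 and 19.4 CPM in the others, and the connecting tubule sum 559 and 425 CPM against 296 and 436 CPM; their part was not tested. Calb1 differed by -1.26 and Trpv5 by -1.11, both toward lower values on the treatment, and Slc8a1 by -0.17. Without replicate 1 of treated macula densa cells these were -0.68, -0.49 and 0.32, and without replicate 2 they were -2.61, -2.76 and -1.16. For Calb1 and Trpv5 the treated libraries were again outside the range of the others, as for 21.8% of genes that were lower. The other 5 genes, Pvalb apart, lay between -0.24 and 0.26. Among them Atp2b4 was slightly lower in both treated libraries (-0.24, 95% interval -0.89 to 0.40), without overlap.

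In control cells the differences of Calb1 (-1.71, edgeR adjusted p 0.696), Slc8a1 (-1.63, edgeR adjusted p 0.698) and S100g (-1.49, edgeR adjusted p 0.776) were toward lower values on low salt plus enalapril. They rested largely on replicate 4 of the control diet, without which they were -0.43, -0.41 and -0.05. Trpv5 was -0.17, and 1.30 without that library. The other 5 genes, Pvalb apart, lay between -0.41 and 0.33. The difference between the 2 diet effects called 0 members and 0% of genes in edgeR, and 0 members and 0.0917% of genes with DESeq2. In the simulated data, only 12.5% of genes changed 4-fold were recovered for this difference, so the lack of calls says little. The difference was largest for S100g, at 2.95 (SE 1.19, edgeR adjusted p 0.688), and 1.51 without control-cell replicate 4 on control diet. Only S100g had an unadjusted p under 0.05 there, as did 7.02% of genes.

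Pvalb, parvalbumin, lies at chr15:78191114-78206400 on the minus strand and had no count in any library from mice on low salt plus enalapril. Its counts on control diet were 9 and 14 in macula densa cells and 4, 2, 12 and 21 in control cells. They were 0 in both treated macula densa libraries and in all 4 treated control-cell libraries. The 6 treated libraries were thus below the 6 others, as for 0.212% of genes, and Pvalb was the only gene tested (0.00705%) with no count in all 6 treated libraries and a count in each of the 6 others. This pattern was looked for after its values had been seen. With 0 counts in the treated libraries, Pvalb passed the filter on low counts only through its control-diet libraries. Both shares are over genes that passed that filter, so how rare the pattern is depends in part on the filter. Taking 3 counts per library as the limit that a count of 0 allows (0.230 to 0.732 CPM, mean 0.493 CPM), Pvalb was at least 2.02-fold lower than its control-diet mean of 0.998 ± 0.691 CPM (SD, n = 6). Within populations it was at least 1.93-fold lower in macula densa cells and at least 2.07-fold lower in control cells. In control cells on control diet Pvalb was at 0.435, 0.188, 1.14 and 2.17 CPM. The first 2 of these lay below the mean limit of treated control cells, 0.474 CPM, and the highest was replicate 4. The fold limits that include this library were not computed without it. All these limits cover the counting error of the treated libraries only.

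For Pvalb the edgeR adjusted p was 0.369 in macula densa cells and 0.444 in control cells, and 0.152 for the mean over both populations, a contrast added after the data had been seen. With DESeq2's Wald test the adjusted p was 0.0466 in control cells and 0.00756 for the mean over both, where 1.73% of genes passed. DESeq2 was not run without control-cell replicate 4 on control diet. The gene has several starts. The upstream bases of its outermost start, where the annotation holds no exon, are shown because the whole gene was at 0; they are RefSeq GRCm38.p6, chr15:78206401-78206650 (minus), 5′ to 3′, with no match to the motifs above.
Pvalb: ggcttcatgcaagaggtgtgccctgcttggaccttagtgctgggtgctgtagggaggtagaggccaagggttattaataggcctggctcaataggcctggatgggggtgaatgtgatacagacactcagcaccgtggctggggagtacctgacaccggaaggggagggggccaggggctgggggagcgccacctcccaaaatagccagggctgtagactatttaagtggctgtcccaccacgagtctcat
Slc12a3, the thiazide-sensitive sodium chloride cotransporter of the same segment, was present in every library. It was at 53.8 and 116 CPM in macula densa cells on control diet and at 51.3 and 75.3 CPM on low salt plus enalapril. In control cells it was at 32.2 to 215 CPM on control diet and at 36.9 to 95.7 CPM on low salt plus enalapril. Its log2 fold change with the treatment was -0.42 (edgeR adjusted p 0.872) in macula densa cells and -0.48 (edgeR adjusted p 0.979) in control cells, and the diets overlapped in both. The part of distal convoluted tubule cells in the Pvalb values was not tested.

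**Figure D4:**
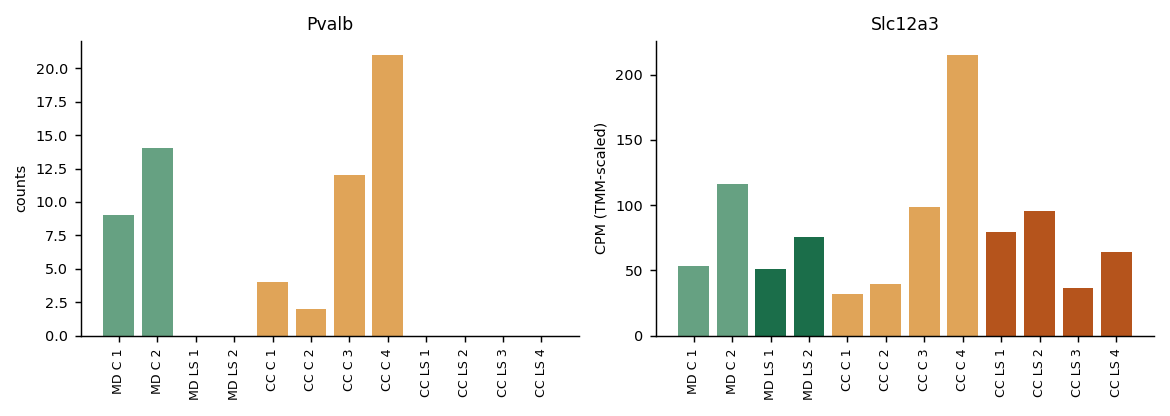
Counts of Pvalb (left) and level of Slc12a3 in CPM (right) in each library; MD is macula densa cells, CC control cells, C control diet, LS low salt plus enalapril, and numbers are replicates. Pvalb has 2 to 21 counts in each of the 6 control-diet libraries and 0 in the 6 others, while Slc12a3 lies between 32.2 and 215 CPM throughout.

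Compared per length of annotated exons (CPM per kb), S100g was the most abundant of the 10 transcripts in every group. In macula densa cells on control diet it was at 53.6 ± 7.51 CPM per kb (SD, n = 2). Atp2b4 came next, at 8.68 ± 0.23 CPM per kb, above Trpm7 (3.48 ± 1.02), Atp2b1 (3.43 ± 0.45) and Calb1 (3.25 ± 0.15), which did not differ beyond their spread. Cnnm2 (1.64), Slc8a1 (1.53), Pvalb (0.990), Trpm6 (0.908) and Trpv5 (0.409) followed. On low salt plus enalapril the first 4 places in macula densa cells were the same, with S100g at 147 and Atp2b4 at 7.32 CPM per kb. In control cells Calb1 took the second place, at 11.9 CPM per kb (control diet) and 3.58 CPM per kb (low salt plus enalapril), and Atp2b4 was at 1.18 and 1.19 CPM per kb. Without control-cell replicate 4 on control diet, Calb1 was at 4.91 ± 1.49 CPM per kb (SD, n = 3), still second, and S100g was at 77.7 in place of 209.9 CPM per kb, still first. By the length of the longest transcript, Atp2b1 in macula densa cells on control diet came to 7.33 CPM per kb and Trpm7 to 5.54, so the order of those 2 turned. On that length Calb1 in control cells on low salt plus enalapril was at 4.11 CPM per kb, below Trpm7 (5.08) and Atp2b1 (4.85), and so no longer second.

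Other genes of calcium and magnesium handling were taken from a list of 65, of which 61 were in the table and 55 were tested. Averaged over the diets, 15 were higher in macula densa cells (27.3%), 10 were lower (18.2%) and 30 did not pass. Over all genes 7.53% were higher and 13.9% lower. With library totals alone, a scaling that moved the median of all genes from -0.06 to 0.14, 20 were higher and 10 lower. None of the 55 passed in a diet comparison.

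Among the hormone and mineral receptors, 4 of 10 were higher and 0 lower. Casr, the calcium-sensing receptor, was at 169.6 ± 17.0 and 165 ± 25.0 CPM in macula densa cells on the control and low salt diets (SD, n = 2 each), against 28.3 ± 24.7 and 22.3 ± 3.43 CPM in control cells (SD, n = 4 each). Its log2 fold change was 2.73 (SE 0.44, edgeR adjusted p 0.00145). Pth1r, the parathyroid hormone receptor, was higher by 1.87 (SE 0.17, edgeR adjusted p 3.62e-05), Vdr, the vitamin D receptor, by 2.03 (SE 0.29, edgeR adjusted p 0.000680), and Ptger3, a prostaglandin E2 receptor, by 2.81 (SE 0.46, edgeR adjusted p 0.00154). Casr and Ptger3 are also markers of the thick ascending limb, of which the macula densa is part. Of 12 thick ascending limb markers, 9 were higher in macula densa cells and 0 lower. Of 12 proximal tubule markers, 4 were higher in macula densa cells and 0 lower. The proximal tubule sum was 57.9 to 275 CPM in macula densa libraries and 36.9 to 113 CPM in control cells. The part of such cells in the receptor levels was not tested.

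Among the other calcium channels and carriers, 3 of 6 were lower and 1 higher. Trpv4, a mechanosensitive channel, was lower by 2.32 on the log2 scale (SE 0.33, edgeR adjusted p 0.000680), as a change of -2.32. Trpv6, the closest relative of Trpv5, had no count in both macula densa libraries on control diet and 0 and 5 counts on low salt plus enalapril, against 2 to 23 counts in control cells. Of the inositol trisphosphate receptors, which release calcium from the endoplasmic reticulum, Itpr1 was higher (1.09, SE 0.15, edgeR adjusted p 0.000664) and Itpr2 lower (-1.62, SE 0.34, edgeR adjusted p 0.00644). Atp2b2, another plasma membrane calcium pump, was lower (-2.54, SE 0.53, edgeR adjusted p 0.00643), opposite to Atp2b4 and Atp2b1, at 3 to 13 counts in macula densa libraries. The endoplasmic reticulum pump Atp2a2 was higher (0.83, SE 0.19, edgeR adjusted p 0.00927), 1 of 2 such pumps tested.

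Of 19 magnesium carriers and their regulators, 4 were higher and 3 lower. Arl15, a regulator of magnesium transport, was higher by 0.94 (SE 0.16, edgeR adjusted p 0.00254). Egfr, the receptor for epidermal growth factor, which stimulates Trpm6, was lower (-2.02, SE 0.36, edgeR adjusted p 0.00280). Slc41a2 was also lower (edgeR adjusted p 0.00292), at 2 to 12 counts in macula densa libraries and 11 to 64 in control cells. Of 11 partners of Trpv5, 3 were higher and 3 lower. The kinase Wnk1 was higher (1.59, SE 0.22, edgeR adjusted p 0.000515), and the annexin Anxa2 (-1.99, SE 0.27, edgeR adjusted p 0.000500), the scaffold Slc9a3r2 (-3.77, SE 0.67, edgeR adjusted p 0.00280) and the kinase Sgk1 (-4.17, SE 0.77, edgeR adjusted p 0.00336) were lower. Among 5 genes of the paracellular route in the thick ascending limb, Cldn16 (2.41, SE 0.60, edgeR adjusted p 0.0149) and Cldn10 (1.91, SE 0.46, edgeR adjusted p 0.0122) were higher. Control cells held the podocyte and endothelial markers described above, and the part of those cells in the genes that were lower in macula densa cells was not tested.

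The genes most like Trpv5, Calb1 and Pvalb were ranked by Pearson's r of log2 CPM over the 12 libraries, among genes with a mean of at least 5 CPM, as a description; the libraries share depth, sort and diet. For Trpv5 they were Epb41l3 (r = 0.949), Cd82 (0.911), Atp6v1g3 (0.904), Dclk3 (0.897) and Stx8 (0.884). For Calb1 they were Myo5c (0.959), Ninl (0.930), the member Slc8a1 (0.920), Car2 (0.918) and Magi1 (0.915). For Pvalb, whose low counts make its values coarse, they were Lman2l (0.921), 2610507B11Rik (0.898), mt-Nd3 (0.896), Oxct1 (0.876) and mt-Nd2 (0.863). Atp2b4 was looked at in the same way after its values had been seen. Its nearest genes included Arfgef3 (0.981), Vps13c (0.980) and Nos1 (0.971), the gene behind the macula densa sort.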

How the data were processed

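Total RNA of 12 sorted libraries was made into libraries with a stranded low-input kit, all at the same time, per the labels' protocols. The authors deposited estimated counts per gene; STAR 2.61, Partek and the mm10 build are listed in the submitters' processing notes, and how reads were assigned to genes and strands is not given in the sources used here. Of the deposited values, 15.0% were not whole (tolerance 1e-09), and all were rounded. Symbols, starts and ends of 23351 of 23378 genes matched GENCODE M21 once 1 was taken from each end.

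Genes were kept with edgeR 4.0.16 (R 4.3.3) filterByExpr (minimum count 10, minimum total 15), scaled by TMM and tested with glmQLFit and glmQLFTest over all 12 libraries with 1 coefficient per group and no block. P-values were Benjamini-Hochberg adjusted over 14180 genes, threshold 0.05. Standard errors are the log2 fold change over the square root of F. DESeq2 1.42.0 was an alternative, with other scalings, filters and left-out libraries. The test was checked on simulated counts, with 200 genes of a mean of at least 5 CPM changed 4-fold. For macula densa against control cells averaged over diets, 92% were recovered. At these depths, 3 counts equal 0.230 to 0.732 CPM.

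All 10 members were named; of the pathway list, up to 4 genes per role with the smallest p; 1 such gene is not reported here. The members and lists were chosen with earlier results of these data known. Some library descriptions share a number across populations. Of the 4 pairs, 3 had deviations correlated under 0.1. With n = 2 macula densa libraries per diet their deviations mirror each other, so these correlations cannot show whether the number marks a pairing. The labels do not say what the number marks, and it was not used as a pairing in the main fit.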

Additional observations from a re-analysis of the deposited data

Results flagged for a closer look

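In 4 of 20 sets of 4 control-cell libraries (10 genes, each diet), the gap between the farthest library and its neighbour was above Dixon's 95% limit for 4 values (0.829 of the group's range). Chance flags about 1 set in 20. All 4 were replicate 4 of control cells on control diet. Trpv5 was at 12.1 CPM there, against 0.543 to 2.34 CPM in the other 3 libraries. Calb1 was at 159 CPM, against 16.0 to 30.1 CPM. S100g was at 291 CPM, against 26.5 to 46.3 CPM. Slc8a1 was at 240.4 CPM, against 30.0 to 43.9 CPM. The same library had 956 CPM of principal cell markers (160.4 to 499 CPM in the others of its group) and 539 CPM of intercalated cell markers (34.3 to 187 CPM); their part was not tested.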

How the results depend on the processing

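Of 476 combinations of a member's fold change and an alternative setting, 449 kept their direction and their side of the threshold, 15 newly passed, 3 no longer passed and 9 changed sign. Atp2b4 stayed called in every setting run for the mean over both diets. For that mean, 2 members were called, and 4 with DESeq2's Wald test (3714 genes of all, against 3032). At a threshold of 0.01, 1 was called (1303 genes of all). With a library left out, 1 to 3 were called. The numbers of all genes called with a library left out are not given here, so these counts have no background beside them. With the replicate block by title number, 1 member was called (1903 genes of all), Atp2b1 no longer passed (0.50, edgeR adjusted p 0.0978), and S100g turned to 0.35 and Trpv5 with diet in control cells to 0.27. With the replicate block by description number, on the 8 libraries that share one, 5 members were called for the mean (3630 of 13692 genes; Atp2b4, Atp2b1, Calb1 at -1.27, Slc8a1 at -0.58 and Trpm6), 3 on control diet (2217 genes of all, against 931) and 4 on low salt plus enalapril (2192, against 1032; S100g at 1.75 among them), and S100g was 0.51. The same 8 libraries without the block gave 4, 2 and 5 members (3876, 2332 and 2281 of 13692 genes) and 0.45 for S100g, so the choice of libraries alone moved these counts (a setting added after the data had been seen). On low salt plus enalapril, 2 members were called with library totals alone (1129 genes of all) and 2 with DESeq2 (1922 genes of all), against 1032 genes; on control diet DESeq2 called 1 (2000 genes, against 931). With libraries left out, 1 to 2 were called within each diet, again without a background. For the treatment, DESeq2 called 0 members in macula densa cells (93 genes of all, against 0), and 0 (13 genes, against 0) for the difference between the diet effects. It called 1 member in control cells (74 genes of all, against 1) and 1 over both populations (245, against 1). With edgeR on the macula densa libraries alone, 1 member was called (105 genes, against 0). Leaving out a library gave -0.66 to 0.22 for S100g between populations, -1.13 to 1.30 for Trpv5 with diet in control cells, and -1.16 to 0.32 for Slc8a1 with diet in macula densa cells. Unless stated, the cause was not tested. Low counts limit Trpv5 and Pvalb.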

Other observations

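Cldn14, a tight junction protein of the thick ascending limb, was near its counting limit throughout. It had 0 counts in both macula densa libraries on control diet and 3 and 14 counts on low salt plus enalapril. In control cells it had 0 to 1 counts on control diet and 0 to 14 on low salt plus enalapril. No fold is given against libraries at 0, and its diet difference in macula densa cells did not pass (edgeR adjusted p 0.345).

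Pth1r was at 88.6 ± 4.60 CPM in macula densa cells on control diet and at 185 ± 25.1 CPM on low salt plus enalapril (SD, n = 2 each). In control cells it was at 30.6 ± 7.73 and 39.8 ± 4.43 CPM (SD, n = 4 each). Its diet difference in macula densa cells was 1.06 on the log2 scale (SE 0.29) and did not pass over all genes (edgeR adjusted p 0.258).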
